A study of Mus musculus with 6 samples.

Results

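The genes described here are 47 lysosomal genes, chosen by symbol from a fixed list of cathepsins and other lysosomal hydrolases, their activators, and proteins of the lysosomal membrane. All 47 were found among the 46095 gene symbols of the count table, and all 47 passed the filter on low counts, as 14120 genes did in all. They were described by role as 12 proteases, 12 glycosidases, 5 sulfatases, 7 lipid enzymes or activators, 7 membrane or cholesterol transport proteins, and 4 others (a nuclease, a pair of acid phosphatases and progranulin).

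The lysosome is the acidic compartment in which a cell breaks down what it has engulfed and its own worn parts. Its proteases, the cathepsins among them, cut proteins, its glycosidases and sulfatases take sugar chains apart from their ends, and its lipid enzymes work with small activator proteins that lift a lipid out of the membrane. Loss of many of these enzymes causes a storage disease of the brain or other organs, and microglia, the phagocytes of the brain, depend on them to digest cell debris and synapses.

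RNA was sequenced from BV2 cells, an immortalized mouse microglial cell line, in 3 libraries of untreated cells (CON group) and 3 libraries of cells given recombinant sTREM-1, the soluble form of a receptor of myeloid cells, at 1 μg/mL for 6 h. Both groups were the same line, grown overnight in the same plate format before treatment. The sources do not say whether the libraries came from separate passages of the line, so the p-values measure only the spread between these libraries, which may be technical. The number of cultures per group in the methods is not the 3 of the labels, and the 3 libraries per group were analysed. The deposited values are raw counts per gene, with 40070633 to 45877107 counts in a library, and levels are given as CPM, the count of a gene relative to the TMM-scaled size of its library. In RNA from whole cultures, fewer cells with a transcript and less of it per cell cannot be told apart.

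The microglial label was checked on 11 marker genes. Itgam, Csf1r, Ptprc, Tyrobp, Fcer1g and Spi1 were abundant, Cx3cr1, Tmem119 and P2ry12 were below 2 CPM on average in the CON group, and Aif1 and Sall1 were listed at 0 in every library. The 11 markers together summed to 2060.2 to 2066 CPM in the CON group and 2271 to 2316 CPM after sTREM-1, and 3 of the 9 tested were called higher and 1 lower. Fibroblast markers summed to at most 0.560 CPM, neuron markers to at most 0.327 CPM and astrocyte markers to at most 1.26 CPM in any library. Oligodendrocyte markers summed to 7.16 to 7.84 CPM in the CON group and 5.63 to 6.70 CPM after sTREM-1. The 13 protein genes of the mitochondrial genome took 1.57% to 1.65% of the counts in the CON group and 1.73% to 1.74% after sTREM-1, and the part of that difference in the results was not tested.

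Many lysosomal genes carry an E-box near their start, the short palindrome CACGTG that transcription factors of the MiT/TFE family, TFEB and TFE3 among them, can bind. RefSeq promoter windows of the mouse build GRCm38.p6, from 250 bases before to 50 bases after the start, were found for 42 of the 47 genes (not for Ctsb, Ctsh, Galns, Asah1 and Npc1). CACGTG was present for 13 of the 42 genes (31%), against 8.09% of all 27025 genes with a window. The form TCACGTGA, which contains CACGTG, was present for 4 of them (Ctsa, Ctsd, Gla and Cln3; 9.52%, against 1.12% of all genes). Each motif reads the same on both strands. The windows below, of 30 bases each and read 5′ to 3′ on the strand of the gene, are from the genes named by size of change whose promoters hold an E-box, with Ctsa and Cln3 added after their motifs were seen. Capitals mark the longer of the 2 motifs where both are present.
Ctsd (chr7:142387908-142387937, minus strand): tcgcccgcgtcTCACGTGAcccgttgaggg
Ctsa (chr2:164833749-164833778, plus strand): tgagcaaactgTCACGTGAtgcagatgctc
Glb1 (chr9:114401018-114401047, plus strand): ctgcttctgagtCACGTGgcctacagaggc
Gla (chrX:134601215-134601244, minus strand): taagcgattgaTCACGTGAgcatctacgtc
Gla (chrX:134601182-134601211, minus strand): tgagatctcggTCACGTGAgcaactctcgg
Lamp1 (chr8:13159088-13159117, plus strand): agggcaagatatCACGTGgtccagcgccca
Lamp1 (chr8:13159121-13159150, plus strand): gatgccgactggCACGTGaccacatcacgt
Cln3 (chr7:126583340-126583369, minus strand): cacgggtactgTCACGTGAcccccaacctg

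Among the 13 genes with CACGTG, 3 were called higher after sTREM-1 (Ctsa, Lgmn and Glb1), 3 were called lower (Ctsd, Gla and Lamp1) and 7 were not called. Among the 29 genes with a window but without the motif, 12 were called higher, 7 lower and 10 were not called. The E-box was thus found in the promoters of genes called in either direction. Of all tested genes, 16.5% were called higher and 14.1% lower. The difference between genes with and without the motif was not tested. Lamp1 held 4 copies between 61 and 10 bases before its start.

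**Figure D1:**
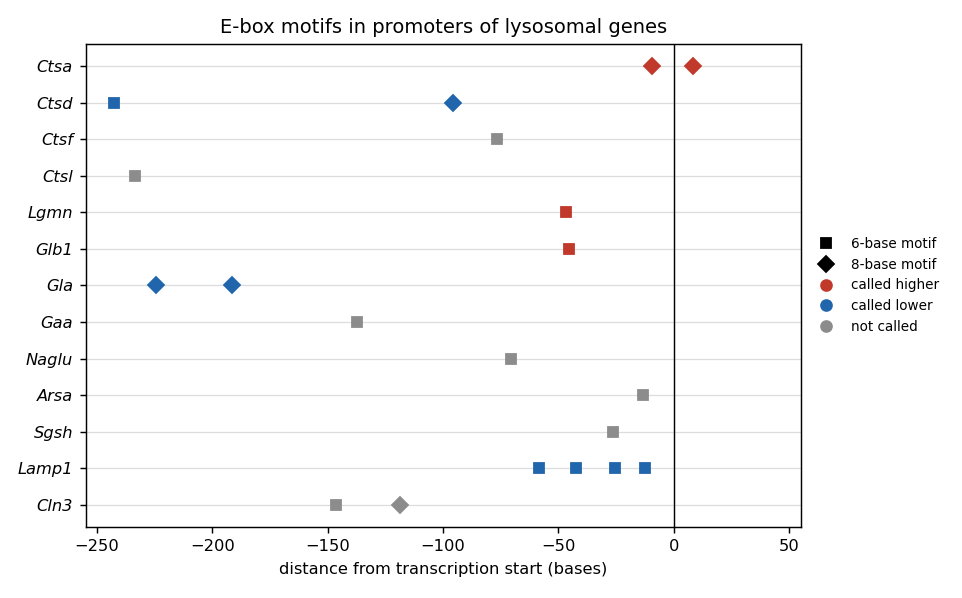
Position of each E-box in the promoter windows of the 13 lysosomal genes that hold one, in bases from the transcription start (0), with marker shape for the longest motif (6 or 8 bases) and colour for the call after sTREM-1. Red, blue and grey genes all hold motifs, and the 4 Lamp1 copies lie side by side before the start.

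After 6 h of sTREM-1, the lysosomal genes moved in both directions and by small amounts. Of the 47 genes, 16 were called higher and 12 lower (edgeR's quasi-likelihood test, Benjamini-Hochberg adjusted p under 0.05 over all 14120 genes), and 19 were not called. The largest rise was 1.32-fold (Arsb) and the largest fall was to 0.793-fold (Idua). Of all tested genes 16.5% were called higher and 14.1% lower, 30.5% in all, and 69.5% were not called, against 34% higher and 25.5% lower among the lysosomal genes. The lysosomal genes are abundant, and abundant genes were called more often. Among genes of at least 100 CPM in the CON group, a floor set after the data were seen, 26.9% were called higher and 27.4% lower, against 36.7% and 33.3% of the 30 lysosomal genes of that level. The groups did not overlap for 18 lysosomal genes in the higher and 12 in the lower direction, where 21.3% and 19.4% of all tested genes were separated in this way, 40.7% in all. The median log2 fold change was 0.03 over the 47 genes and -0.0017 over all tested genes. Where a call also had to reach 1.2-fold, 6 lysosomal genes were higher and 1 was lower, against 5.92% and 4.82% of all genes.

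**Figure D2:**
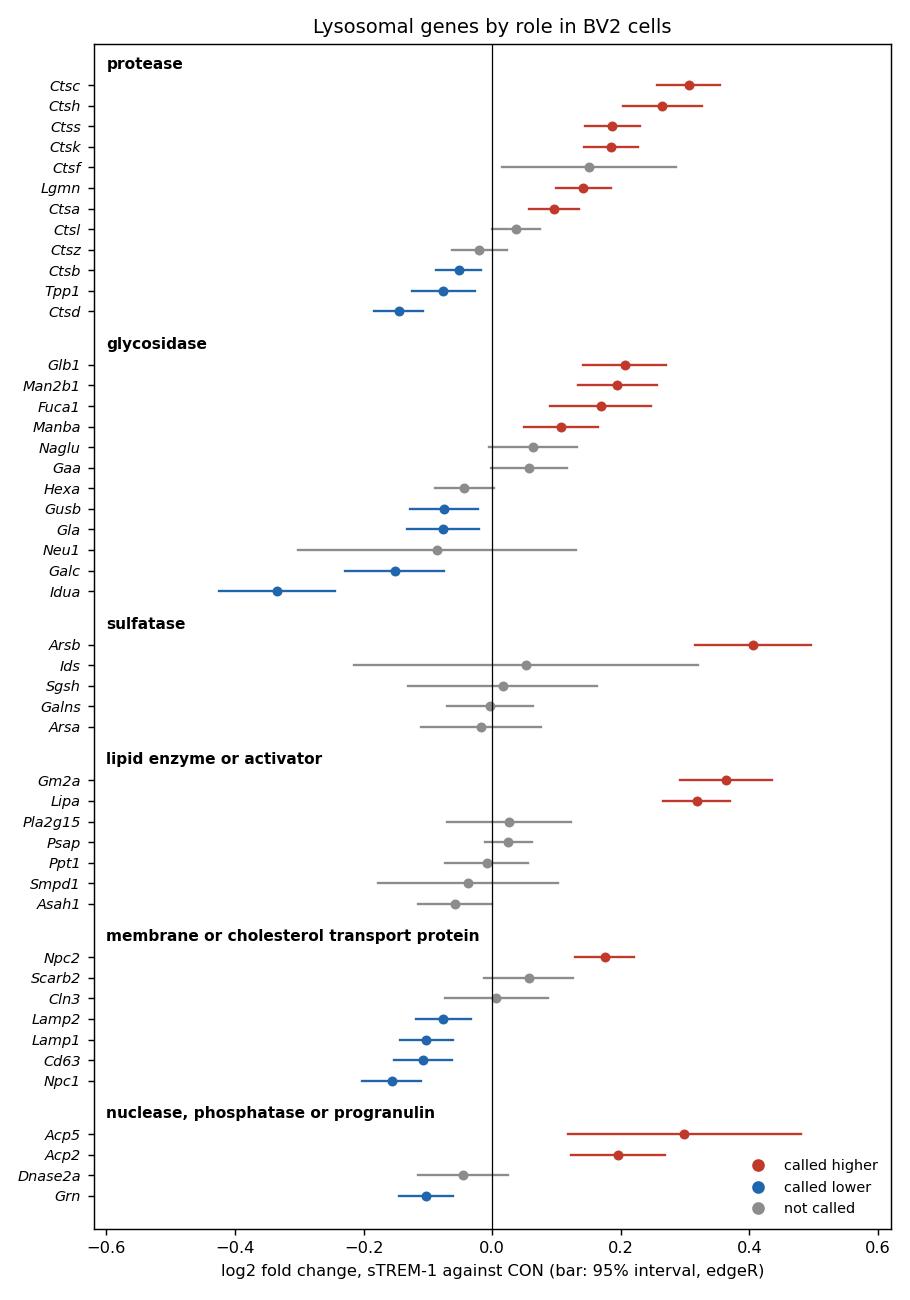
Log2 fold change of each of the 47 lysosomal genes (sTREM-1 against CON, 3 libraries each) with its 95% interval from edgeR, grouped by role. Proteases and glycosidases hold genes on both sides of 0, while 4 of the 7 membrane or cholesterol transport genes lie below 0 with Npc2 alone called above it.

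The calls in each role stand beside 16.5% higher and 14.1% lower among all tested genes. Among genes of at least 100 CPM in the CON group the shares were 26.9% and 27.4%. Each role holds few genes, and differences between roles were not tested. Of the 12 proteases, 6 were called higher and 3 lower, and the median log2 fold change was 0.12. Of the 12 glycosidases, 4 were higher and 4 lower, with a median of 0.01. Of the 5 sulfatases, 1 was higher and none was lower, and of the 7 lipid enzymes or activators 2 were higher and none was lower. Of the 7 membrane or cholesterol transport proteins, 1 was higher and 4 were lower, with a median of -0.08. Among the remaining 4 genes, 2 were higher and 1 was lower.

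Cathepsins are the main lysosomal proteases, most of them cysteine enzymes. Ctsc encodes a dipeptidyl peptidase that activates other proteases and rose the most among the proteases. Its level was 511, 533 and 505 CPM in the 3 CON libraries and 636, 654 and 625 CPM in the 3 sTREM-1 libraries. Every sTREM-1 library lay above every CON library, and the log2 fold change was 0.31 (standard error 0.02, adjusted p = 1.8e-11). Ctsh, an aminopeptidase, had 145, 154 and 150.4 CPM in the CON group and 180.4, 184 and 175 CPM after sTREM-1. These groups were apart as well, with a log2 fold change of 0.26 (standard error 0.03, adjusted p = 3.7e-08). Ctss, which trims the invariant chain of MHC class II and stays active at neutral pH, had 829, 861 and 833 CPM in the CON group and 955, 966 and 950 CPM after sTREM-1. All 3 sTREM-1 libraries lay above all 3 CON libraries, with a log2 fold change of 0.19 (standard error 0.02, adjusted p = 3.0e-08). Ctsk, the collagen-degrading cathepsin of osteoclasts, was higher too, at 763 ± 1.67 CPM in the CON group and 868 ± 6.92 CPM after sTREM-1 (SD, n = 3 each), which is 0.18 on the log2 scale. Lgmn, an asparaginyl endopeptidase that processes cathepsins, was higher as well, at 960.0 ± 6.36 CPM against 1059 ± 25.5 CPM (SD, n = 3 each), and Ctsa, the carboxypeptidase that protects β-galactosidase and neuraminidase, rose by a log2 fold change of 0.10.

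The most abundant protease moved the other way. Ctsd, the aspartic protease that is the main endopeptidase of many cells, had 6559, 6543 and 6651 CPM in the CON group and 5907, 5769 and 6183 CPM after sTREM-1. All 3 sTREM-1 libraries lay below the CON group, with a log2 fold change of -0.15 (standard error 0.02, adjusted p = 2.9e-07). Tpp1, a tripeptidyl peptidase lost in a form of Batten disease, had 445, 439 and 449 CPM in the CON group and 423, 410.3 and 432 CPM after sTREM-1. The groups did not overlap, the log2 fold change was -0.08 (standard error 0.02, adjusted p = 0.0147), and the adjusted p was 0.0532, 0.0622 and 0.0839 without CON replicate 1, CON replicate 3 and sTREM-1 replicate 2. Ctsb, an endopeptidase that can also remove dipeptides from the C terminus of a protein, was called lower with a log2 fold change of -0.05 (adjusted p = 0.0208), but its groups overlapped. It had 4842, 4782 and 4701 CPM in the CON group and 4586, 4523 and 4710 CPM after sTREM-1, and the adjusted p was 0.151, 0.0934 and 0.0941 without CON replicate 1, sTREM-1 replicate 1 and sTREM-1 replicate 2. Its call thus depended on which libraries were included.

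The other 3 proteases were not called. Ctsl, a cysteine endopeptidase, had 2699 ± 15.2 CPM in the CON group and 2769 ± 64.9 CPM after sTREM-1 (SD, n = 3 each). Ctsz, a carboxypeptidase, had 1905 ± 19.4 and 1879 ± 66.4 CPM, and its log2 fold change of -0.02 had a 95% interval from -0.06 to 0.02. Ctsf had far fewer counts, with 22.1 ± 1.69 CPM in the CON group and 24.6 ± 1.12 CPM after sTREM-1. Among the 8 cysteine cathepsins, Ctsc, Ctsh, Ctsk and Ctss were thus called higher and Ctsb lower, a grouping made after the values were seen. Because Ctsd and Ctsb hold a large part of the protease reads, the summed level of the 12 proteases was 21430 ± 34.0 CPM in the CON group and 21247 ± 494 CPM after sTREM-1 (SD, n = 3 each), so that the sum did not follow the count of genes called higher.

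**Figure D3:**
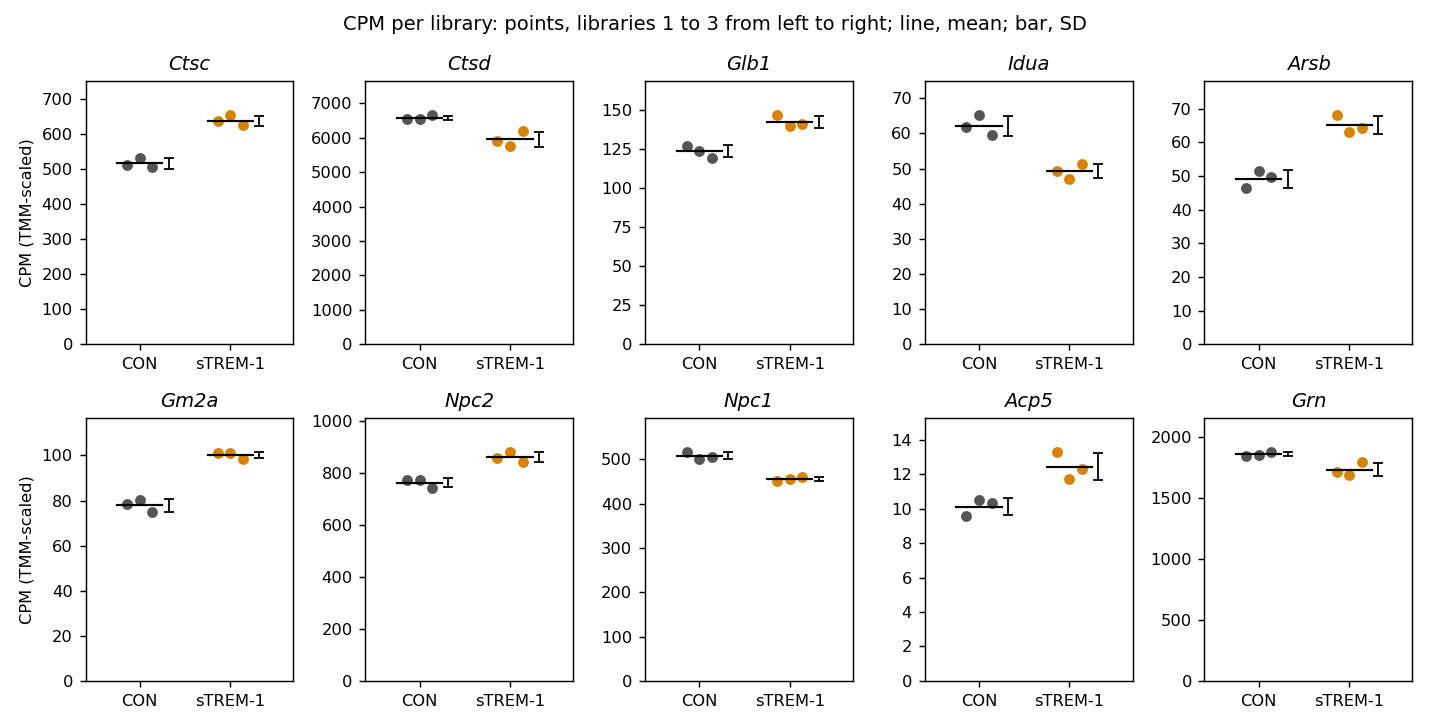
CPM in each library for the gene of largest rise and of largest fall in each role, where one was called with groups that do not overlap (points, libraries 1 to 3 from left to right; line, mean; bar, SD; axes start at 0). In every panel the 3 sTREM-1 libraries lie on one side of the 3 CON libraries, and the changes are small beside the levels, from 0.793-fold for Idua to 1.32-fold for Arsb.

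The glycosidases cut sugars from the ends of glycoproteins, glycolipids and glycosaminoglycans. Glb1, the lysosomal β-galactosidase, had 127, 124 and 119.5 CPM in the CON group and 147, 139.7 and 141 CPM after sTREM-1. Every sTREM-1 library lay above every CON library, with a log2 fold change of 0.21 (standard error 0.03, adjusted p = 5.7e-06). Man2b1, the lysosomal α-mannosidase, had 120.1, 119 and 116 CPM in the CON group and 136, 135 and 135 CPM after sTREM-1. Its groups were apart by far more than their spread, with a log2 fold change of 0.19 (standard error 0.03, adjusted p = 6.5e-06). Fuca1, an α-fucosidase, had 71.7, 78.9 and 76.0 CPM in the CON group and 87.9, 84.1 and 82.8 CPM after sTREM-1. The CON libraries varied more here, and the log2 fold change was 0.17 (standard error 0.04, adjusted p = 0.00104). Manba, the β-mannosidase, was called higher, at 158 ± 2.80 CPM against 171 ± 2.18 CPM (SD, n = 3 each, adjusted p = 0.00359 by edgeR). These 4 enzymes share a place in the stepwise trimming of glycoprotein sugar chains.

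Idua fell the most of the 47 genes. It encodes α-L-iduronidase, which cuts iduronic acid from heparan and dermatan sulfate. It had 61.7, 65.2 and 59.7 CPM in the CON group and 49.4, 47.2 and 51.4 CPM after sTREM-1. All 3 sTREM-1 libraries were lower, with a log2 fold change of -0.33 (standard error 0.04, adjusted p = 5.1e-07). Galc, the galactosylceramidase lost in Krabbe disease, had 77.3, 74.96 and 73.8 CPM in the CON group and 69.4, 65.9 and 68.0 CPM after sTREM-1. The groups were apart, with a log2 fold change of -0.15 (standard error 0.04, adjusted p = 0.00216). Gla, the α-galactosidase of Fabry disease with a pair of E-boxes in its promoter, had 217, 225 and 231 CPM in the CON group and 212, 216 and 210.0 CPM after sTREM-1. The lowest CON library nearly met the highest sTREM-1 library, the log2 fold change was -0.08 (standard error 0.03, adjusted p = 0.0346), and the adjusted p was 0.0734, 0.182, 0.105 and 0.0852 when CON replicate 2, CON replicate 3, sTREM-1 replicate 1 or sTREM-1 replicate 3 was left out. Gusb, the β-glucuronidase, was called lower, at 393 ± 14.7 CPM against 373 ± 5.39 CPM (SD, n = 3 each), with an adjusted p of 0.0274 by edgeR that became 0.281 without CON replicate 1 and 0.138 without sTREM-1 replicate 1.

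The remaining 4 glycosidases were not called. Hexa, the α subunit of β-hexosaminidase and the glycosidase with the highest level per kilobase of transcript (230.4 ± 3.93 CPM per kilobase in the CON group), had 469, 457 and 454 CPM in the CON group and 449, 447 and 443 CPM after sTREM-1. Its groups did not overlap, yet the log2 fold change of -0.04 had an adjusted p of 0.163, and once GC content and length of the transcripts were corrected for, a step added after the data were seen, the adjusted p was 0.00962. Naglu, which removes N-acetylglucosamine from heparan sulfate, also had groups that did not overlap, with 90.1 ± 2.40 CPM in the CON group and 94.2 ± 0.677 CPM after sTREM-1 (SD, n = 3 each), and an adjusted p of 0.168. Gaa, the acid α-glucosidase, had 219 ± 2.26 and 228 ± 10.2 CPM. Neu1, the lysosomal neuraminidase, had only 302 to 397 counts in a library, and its 95% interval ran from -0.30 to 0.13 on the log2 scale.

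The sulfatases take sulfate groups from the same sugar chains and from sulfatide. Arsb, which acts on dermatan and chondroitin sulfate, showed the largest rise of the 47 genes. Its level was 46.3, 51.5 and 49.6 CPM in the CON group and 68.0, 63.0 and 64.2 CPM after sTREM-1. The lowest sTREM-1 library exceeded the highest CON library by a clear margin, with a log2 fold change of 0.41 (standard error 0.04, adjusted p = 1.7e-08). The other 4 sulfatases were not called. Galns, which acts on keratan sulfate and had the highest level per kilobase of the sulfatases (43.2 ± 0.833 CPM per kilobase in the CON group), had 110.5 ± 2.13 CPM in the CON group and 110.2 ± 3.25 CPM after sTREM-1 (SD, n = 3 each). Its 95% interval ran from -0.07 to 0.06 on the log2 scale. Arsa, which acts on sulfatide, had an interval from -0.11 to 0.08. Sgsh and Ids, both of the heparan sulfate pathway, were with Neu1 the least abundant of the 47 genes per kilobase, and their intervals ran from -0.13 to 0.16 and from -0.21 to 0.32.

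Among the lipid enzymes and activators, a pair of genes rose. Gm2a encodes the activator that presents the ganglioside GM2 to β-hexosaminidase. It had 78.6, 80.3 and 74.7 CPM in the CON group and 101, 100.9 and 98.6 CPM after sTREM-1. All 3 sTREM-1 libraries lay far above the CON group, with a log2 fold change of 0.36 (standard error 0.04, adjusted p = 1.5e-09). Lipa, the acid lipase that frees cholesterol from its esters, had 214, 219 and 212 CPM in the CON group and 267, 272 and 266 CPM after sTREM-1. The spread in each group was a small part of the gap between them, with a log2 fold change of 0.32 (standard error 0.03, adjusted p = 4.1e-11). Gm2a rose while Hexa, the subunit its protein works with, did not pass the test.

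The other 5 genes of this role were not called, and their intervals were narrow where counts were many. Psap, the precursor of the saposins, had the highest level per kilobase of the role (1134 ± 12.6 CPM per kilobase in the CON group). It had 3002, 3050.0 and 2986 CPM in the CON group and 3029, 3036 and 3130.5 CPM after sTREM-1, and these libraries overlapped. Its log2 fold change of 0.03 had a 95% interval from -0.01 to 0.06 and turned to -0.01 after the correction for GC content and length. Asah1, the acid ceramidase, had 248 ± 9.54 and 238 ± 4.95 CPM, and Smpd1, the acid sphingomyelinase, 22.7 ± 1.26 and 22.1 ± 1.82 CPM (SD, n = 3 each). Ppt1, a thioesterase that removes palmitate from proteins, had an interval from -0.07 to 0.06, and Pla2g15, a lysosomal phospholipase, from -0.07 to 0.12.

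Of the genes for proteins of the lysosomal membrane and of cholesterol export, 4 of 7 were called lower, Npc2 was called higher, and Scarb2 and Cln3 were not called. Of all tested genes 16.5% were called higher and 14.1% lower. Among those of at least 100 CPM in the CON group the shares were 26.9% and 27.4%. Npc1 and Npc2 act in sequence, in that the soluble Npc2 protein takes up cholesterol in the lumen and hands it to Npc1 in the membrane. Npc2 had 771, 772 and 741 CPM in the CON group and 856, 879.6 and 843 CPM after sTREM-1. Its sTREM-1 libraries all lay above its CON libraries, with a log2 fold change of 0.17 (standard error 0.02, adjusted p = 3.1e-07). Npc1 had 517, 501 and 505 CPM in the CON group and 451, 455 and 461 CPM after sTREM-1. Its sTREM-1 libraries all lay below its CON libraries, with a log2 fold change of -0.16 (standard error 0.02, adjusted p = 2.4e-06). The pair of genes thus moved in opposite directions, each by more than its spread.

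Lamp1 and Lamp2 are the main glycoproteins of the lysosomal membrane. Lamp1, with 4 E-boxes before its start, had 1480.0, 1469 and 1449 CPM in the CON group and 1361, 1334 and 1402 CPM after sTREM-1. The groups were apart, with a log2 fold change of -0.10 (standard error 0.02, adjusted p = 0.00021). Lamp2 had 832, 852 and 842 CPM in the CON group and 798, 809.8 and 788 CPM after sTREM-1, and it fell by 0.08 on the log2 scale (adjusted p = 0.00527). Cd63, a tetraspanin of late endosomes and exosomes, had 534, 537 and 522 CPM in the CON group and 494, 496 and 488 CPM after sTREM-1. It was lower in all 3 libraries, with a log2 fold change of -0.11 (standard error 0.02, adjusted p = 0.00034). Scarb2, the receptor that carries glucocerebrosidase to the lysosome, had groups that did not overlap but was not called, with 90.0 ± 2.35 and 93.6 ± 1.51 CPM (SD, n = 3 each). Cln3, with TCACGTGA in its promoter, had 67.6 ± 1.58 CPM in the CON group and 67.9 ± 2.35 CPM after sTREM-1. Together the 7 genes summed to 4266 ± 43.7 CPM in the CON group and 4134 ± 14.1 CPM after sTREM-1 (SD, n = 3 each).

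The last 4 genes have other roles. Grn encodes progranulin, a protein of the lysosome lumen whose loss causes a frontotemporal dementia and is abundant in microglia. It had 1847, 1855 and 1876 CPM in the CON group and 1716, 1688 and 1791 CPM after sTREM-1. All 3 sTREM-1 libraries were lower, with a log2 fold change of -0.10 (standard error 0.02, adjusted p = 2.0e-04). Acp2, the lysosomal acid phosphatase, had 71.3, 68.9 and 70.8 CPM in the CON group and 80.6, 81.3 and 79.8 CPM after sTREM-1. Its groups were tight and apart, with a log2 fold change of 0.20 (standard error 0.04, adjusted p = 7.2e-05). Acp5, the tartrate-resistant phosphatase of osteoclasts and macrophages, had 9.54, 10.5 and 10.3 CPM in the CON group and 13.3, 11.7 and 12.3 CPM after sTREM-1. Its rise, a log2 fold change of 0.30 (standard error 0.09, adjusted p = 0.0101), had an adjusted p of 0.0555 without CON replicate 1 and 0.0665 without sTREM-1 replicate 1. Dnase2a, the acid nuclease, was not called, with 101 ± 3.10 and 98.0 ± 3.24 CPM (SD, n = 3 each).

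Levels were compared between genes per kilobase of transcript, with lengths from the GENCODE M21 annotation. In the CON group they ran from 1.10 CPM per kilobase for Ids to 3096 CPM per kilobase for Ctsd. Ctsd ranked 8 among all tested genes with a known length, Ctsz 16, Psap 22, Ctsb 26 and Grn 36. Of the 46 pairs of neighbours in this order, 14 had CON libraries that overlapped, so that their order was not beyond the spread. Among the 10 genes of highest level, 4 were called higher (Ctss, Ctsk, Ctsa and Lgmn), 4 lower (Ctsd, Ctsb, Grn and Lamp1) and 2 were not called (Ctsz and Psap). Of all tested genes of at least 100 CPM in the CON group, 26.9% were called higher and 27.4% lower. The difference from these shares was not tested. The genes called lower had a median of 189.9 CPM per kilobase, those called higher 62.01 and those not called 35.2. Smaller changes can be called where counts are many, and the difference in level between these sets was not tested. Across the 47 genes the level and the log2 fold change had a Spearman correlation of -0.21, where all points come from the same 6 libraries and each fold change was computed from the same CON counts as the level. All 47 genes together took 3.39% ± 0.0130 of the counts in the CON group and 3.32% ± 0.0502 after sTREM-1 (SD, n = 3 each).

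**Figure D4:**
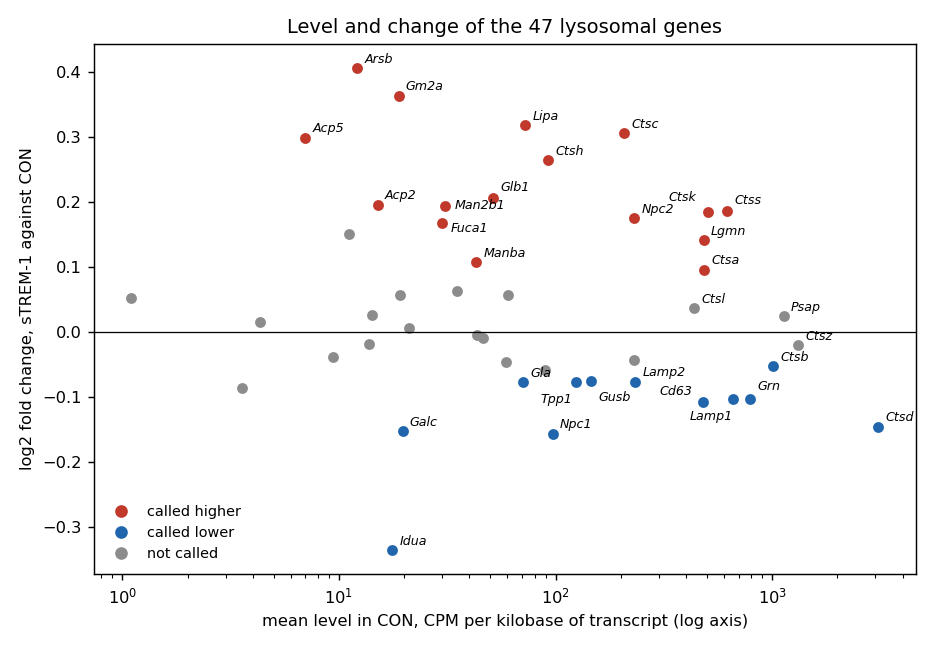
Mean level of each lysosomal gene in the CON group (CPM per kilobase of transcript, log axis) against its log2 fold change after sTREM-1, coloured by call. The largest rises (Arsb, Gm2a and Lipa) and the largest fall (Idua, at 17.6) all lie at levels under 100 CPM per kilobase. Ctsd, the highest gene at 3096, lies below 0.

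The strand used in counting is not given in the sources used here, and 20 of the 47 genes have exons that overlap exons of another gene in GENCODE M21. The neighbour was counted at a sizeable level in 5 cases. Apobr had 115% of the CPM of Cln3 in the CON group, Cap1 411% of Ppt1, Dgkq 42.1% of Idua, Tmppe 31.0% of Glb1 and Card14 30.7% of Sgsh. Of these 5 neighbours, Card14 was called lower (log2 fold change -0.79, adjusted p = 3.4e-05) and the others were not called. By length, more than 20% of the exon bases were shared in 5 genes. These were Ctsd (34.4% with Gm49369 on the same strand), Arsb (32.3% opposite Gm26527), Dnase2a (30% opposite Mast1), Ctsl (26.8% opposite Gm47123) and Sgsh (21.6% opposite Card14). The symbols Gm49369, Gm26527 and Gm47123 are absent from the count table, so their levels are not known, and Mast1 had at most 4 counts in a library. Without the strand, reads from the shared stretch of a pair on opposite strands cannot be told apart, and for Ctsd and Glb1, whose neighbours lie on the same strand, the strand would not separate them. The part of this in the values of those lysosomal genes was not tested.

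Other genes of the lysosome were taken from 5 lists, of which 74 of 75 genes were in the table and 65 were tested. Of these, 13 were called higher and 20 lower, and their median log2 fold change was 0.01. Among the other membrane proteins of the lysosome, 4 were higher and 11 lower of 23 tested, with a median of -0.12. These counts stand beside 16.5% higher and 14.1% lower calls among all tested genes, and the difference between the lists was not tested. The nucleoside transporter gene Slc29a3 fell by 0.20 on the log2 scale, the calcium channel gene Mcoln3 by 0.20 and Litaf by 0.18 (adjusted p = 2.2e-04, 1.2e-05 and 5.8e-08). The lipid transporter gene Abca2 rose by 0.19, Slc11a1, the metal transporter of phagosomes, by 0.18 and Tmem192 by 0.17 (adjusted p = 0.0083, 8.0e-07 and 0.00538). Laptm5 was called higher only through sTREM-1 replicate 3, with 2940 counts there against 175 to 195 counts in the other 5 libraries.

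Among the 24 genes tested from the list of other hydrolases, 4 were higher and 5 lower, beside 16.5% and 14.1% of all tested genes. Hgsnat, which is on this list, encodes an acetyltransferase and not a hydrolase. It acetylates heparan sulfate so that its next sugar can be removed. Hgsnat had 4206, 4048 and 4203 counts in the CON group and 2966, 2729 and 2638 counts after sTREM-1. Its fall, a log2 fold change of -0.64 (standard error 0.04, adjusted p = 1.2e-14), was larger than that of any of the 47 genes. Dpp7 and Ctbs fell by 0.28 and 0.14 on the log2 scale, while the hyaluronidase gene Hyal1 and Smpdl3b had log2 fold changes of 0.37 and 0.28 (adjusted p = 1.2e-08, 0.0119, 4.1e-06 and 1.2e-04 in this order).

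**Figure D5:**
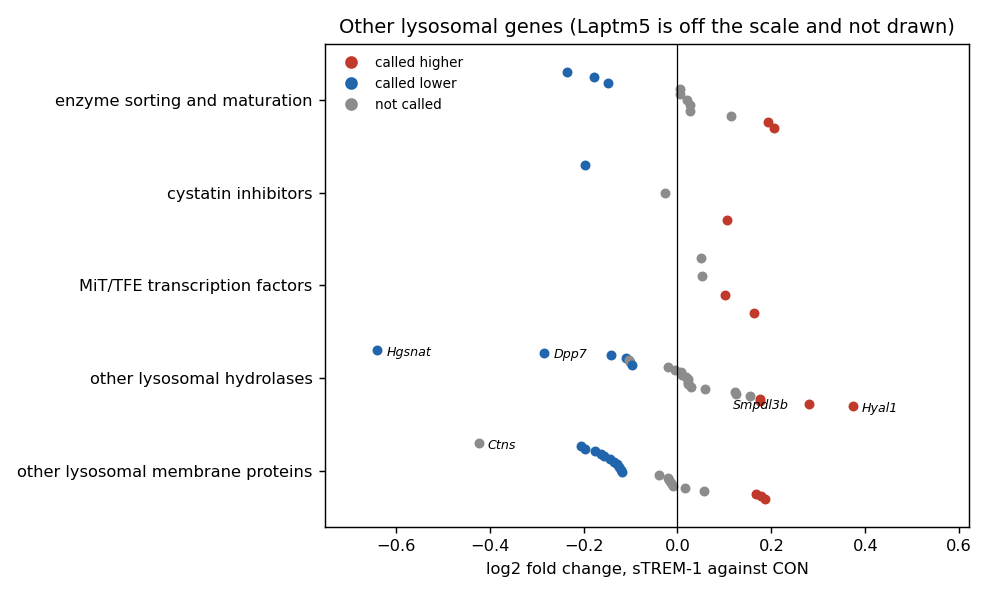
Log2 fold change (sTREM-1 against CON) of 64 of the 65 other lysosomal genes tested, by list and coloured by call, with names where the change is over 0.24 in size (Laptm5 is not drawn). Hgsnat stands apart at -0.64, and the other membrane proteins lie mostly below 0.

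The genes that act on the enzymes before they reach the lysosome were mixed, with 2 called higher and 3 lower of 11 tested. Of all tested genes, 16.5% were called higher and 14.1% lower. M6pr and Igf2r encode the receptors for the mannose 6-phosphate tag that sorts hydrolases, and M6pr rose with a log2 fold change of 0.19 (adjusted p = 3.9e-07) while Igf2r fell by 0.15 (adjusted p = 1.4e-05). Gnptg, a subunit of the enzyme that makes the tag, fell by 0.23 (adjusted p = 0.00621), and Sumf1, which activates all sulfatases, fell by 0.18 (adjusted p = 1.5e-04). Cln6, a membrane protein of the endoplasmic reticulum, rose with a log2 fold change of 0.21 (adjusted p = 0.0104). The cystatins inhibit cysteine cathepsins, and Cst3 rose with a log2 fold change of 0.11 (adjusted p = 0.0016) while Cstb fell by 0.20 (adjusted p = 7.3e-07). Of the transcription factors of the MiT/TFE family that bind the E-box, Mitf and Tfe3 were called higher, with log2 fold changes of 0.16 and 0.10 (adjusted p = 6.5e-04 and 0.0495), 2 of the 4 tested, and Tfeb, with 394 to 481 counts in a library, was not (log2 fold change 0.05, adjusted p = 0.721).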

How the data were processed

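RNA of BV2 cells was sequenced in 3 CON libraries and 3 sTREM-1 libraries. The authors deposited raw counts per gene symbol. Their methods name FastQC for the reads and RSEM for FPKM values, and do not say how these counts were made. The submitters' processing notes name HISAT2 2.0.4 and the human builds hg19 and GRCh38, while the symbols are those of mouse genes. The mouse build, annotation and strand are not given in the sources used here. All columns of the table were used.

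From these deposited counts, low genes were removed by filterByExpr at a minimum count of 10 and library sizes were scaled by TMM. CON and sTREM-1 were then compared for every remaining gene, without covariates, by quasi-likelihood F tests in edgeR (version 4.0.16, R 4.3.3), the package that the methods name. The biological coefficient of variation was 3.99%. Standard errors and 95% intervals were derived from each log2 fold change with its F value. Genes named with full values are, in each role, at most 3 rises and 3 falls of largest log2 fold change among calls with groups that do not overlap, and the gene of highest level per kilobase. In the other lists at most 3 in each direction were named. A gene that this rule names is not reported here. Further genes were named after their values were seen. The members and lists were chosen with earlier results of these data known.

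All 6 pairs of libraries within a group differed by more than sampling noise (chi-square per gene 3.45 to 4.99, against 20.3 to 22.3 between groups), so each was kept as a replicate. Counting error is small at this depth except for genes of few counts. The procedure was tested on simulated counts. Alternatives were RLE size factors, other filters, DESeq2 1.42.0, a replicate block, leaving out each library, a minimum fold change and, added after the data were seen, a loess correction for GC content and transcript length (span 0.3), for which 90.7% of tested genes had values.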

Additional observations from a re-analysis of the deposited data

How the results depend on the processing

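Over 13 alternative fits, 28 of the 47 lysosomal genes kept their direction and their side of the threshold in all. The 16 higher and 12 lower calls were 16 and 12 with RLE size factors, with at least 10 counts in every library, with DESeq2 and with the replicate block, 16 and 11 without a filter, where Ctsb was not called (adjusted p = 0.0763), and 16 and 13 with the correction for GC content and length, with or without the block. Without each library in turn, 15 to 18 genes were called higher and 9 to 12 lower. Among these fits, lower proteases ranged from 1 to 4, lower glycosidases from 2 to 4 and the higher genes among the last 4 from 1 to 2. Deviations of same-numbered libraries correlated at -0.018, -0.033 and -0.014 across genes, and no library correlated best with its own number. No pairing was thus seen, but with 3 libraries per group a weak pairing could be missed. The replicate block left 2474 higher and 2139 lower genes in the whole table against 2324 and 1988.

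Calls that also had to reach 1.2-fold were far fewer, with 836 higher and 681 lower genes in the whole table, 6 and 1 lysosomal genes, 2 higher and 0 lower proteases, 0 and 1 glycosidases, 0 and 0 membrane or cholesterol transport genes, 1 and 0 of the last 4 genes, and 3 and 2 of the other lysosomal genes. This follows from the small size of the changes.

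A change of sign occurred only for genes that were not called. With the GC and length correction the log2 fold change was -0.018 for Sgsh, -0.0039 for Pla2g15, -0.0057 for Psap and -0.015 for Cln3, and with the replicate block as well it was -0.018, -0.0048, -0.0057 and -0.015. Without each library in turn the log2 fold changes ran from -0.049 to 0.00074 for Ctsz, -0.019 to 0.019 for Galns, -0.049 to 0.028 for Arsa, -0.092 to 0.18 for Ids, -0.039 to 0.066 for Sgsh, -0.11 to 0.0049 for Smpd1, -0.024 to 0.0033 for Ppt1 and -0.015 to 0.035 for Cln3. For these turns of sign the cause was not tested. Genes of few counts, such as Ids, Neu1 and Acp5, had the widest intervals.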

Other observations

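The genes can also be grouped by substrate, a grouping made after the values were seen and not tested. Of the enzymes that take heparan sulfate apart, Idua and Gusb were called lower, as was Hgsnat of the other lists, while Naglu, Sgsh and Ids were not called. For dermatan sulfate, which shares Idua, Arsb had a log2 fold change of 0.41 against -0.33 for Idua. For sphingolipids, Gm2a and Glb1 were called higher (log2 fold changes 0.36 and 0.21), Galc and Gla were called lower (-0.15 and -0.08), and Hexa, Arsa, Smpd1, Asah1 and Psap were not called.

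Lipa, whose enzyme frees cholesterol in the lumen, and Npc2, whose protein carries it to the membrane, were called higher (log2 fold changes 0.32 and 0.17), and Npc1, through which it leaves, was called lower (-0.16). These 3 genes kept their calls in all 13 alternative fits.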
